A study of Mus musculus with 7 samples.

Results

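The dystrophin-glycoprotein complex of skeletal muscle was examined through 8 genes out of the 31131 gene names on the array: Dmd, Utrn, Dag1, Sgca, Sgcb, Sgcd, Sntb1 and Dtna. Every non-control probe named for one of them, by the array annotation or by the current symbol of its accession, was taken, which gave 18 probes. Probes were matched to these genes by name alone. Quadriceps RNA came from C57BL/6 mice with an age of 3 months (90 days), before motor signs in this model. WT mice (4 arrays) were wild type by the labels, although the results text of the study describes its controls as knock-in mice with a short CAG repeat. AR113Q mice (3 arrays) carried a knock-in allele with an expanded CAG repeat, present in every cell type, as a model of spinobulbar muscular atrophy. The series design writes AR113Q-NCD and does not explain NCD. RNA of 1 mouse was hybridized with 1 dye to 1 Agilent array, and nothing was pooled.

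The complex spans the muscle fiber membrane and ties the actin cytoskeleton to the basement membrane. Dystrophin, or its paralog utrophin at the neuromuscular junction, binds actin at one end and dystroglycan at the other, and the sarcoglycans lock dystroglycan into place while syntrophins and dystrobrevins dock signaling proteins on the inner face. Loss of dystrophin causes Duchenne muscular dystrophy, and loss of single sarcoglycans causes limb-girdle muscular dystrophies.

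Of the 7 genes with a probe above background, Sgcd (δ-sarcoglycan) and Utrn (utrophin) were lower in AR113Q muscle, Sgcb (β-sarcoglycan) was higher, and Dmd, Dag1, Sgca and Dtna did not pass the test, each read by its brightest probe. With the mean over its 3 probes instead, Dmd passed (0.83, limma adjusted p = 0.0102). That mean rests on the dim Dmd 3′ probe, which changed by 2.02 here and by 0.32 in the authors' values. The Dmd 5′ and middle probes did not pass (limma adjusted p = 0.667 and 0.123), and the mean is not read as a call. Sgcd alone passed the thresholds for a differentially expressed gene (DEG), at 37.1% of the WT level by its 3′ probe. A probe counted as a DEG when limma gave a Benjamini-Hochberg adjusted p of at most 0.05 over all 20987 probes tested and a log2 fold change of at least 1 in size.

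Across the array, 12.6% of tested probes were DEGs with lower and 12.2% DEGs with higher signal in AR113Q muscle. These 5207 DEGs fell to 2088 with normexp background correction, 2264 without background subtraction and 1592 in the authors' normalized values. Without the fold change threshold these shares were 21.6% and 22.2%, and on 49.6% of tested probes the 2 genotypes did not overlap. There were 15 member probes kept, 1 of which (Dtna 5′) was above background in AR113Q muscle alone and so was kept through the genotype in which it was high. Of the other 14, 2 were lower DEGs and 1 a higher DEG, 4 were lower and 3 higher at the adjusted p alone, and 9 had genotypes that did not overlap, counts too small to be set apart from the shares over the array. The median log2 fold change was 0.10 over these 14 probes and 0.01 over all probes. Probes of 1 gene share their target and are not separate evidence.

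Each array measured 39429 probes, of which 47.6% to 55.8% were well above background, and no spot was saturated. Arrays correlated across probes at 0.98 to 0.99 within WT, 0.97 to 0.98 within AR113Q and 0.91 to 0.94 between genotypes. The slow fiber genes (6 markers) differed widely between arrays of the same genotype: their summed signal was 1053, 30889, 32361 and 1442 on WT arrays 1 to 4, and 1318, 627 and 81207 on AR113Q arrays 1 to 3. WT arrays 2 and 3 and AR113Q array 3 therefore stood apart, and the results below are also given without these 3 where that changes a call. Without them WT arrays 1 and 4 are set against AR113Q arrays 1 and 2 only.

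The signal of a gene is the signal of its probes, so the stretches of transcript that carry the results are shown first. Each line gives bases 16 to 45 of a 60-base probe, 5′ to 3′ on the strand of the gene, and probes are named by their order along the gene. The 3 Dmd probes, whose changes differed, lie over 1793 kb of chromosome X, at chrX:80596782-80596841, chrX:81132417-81132476 and chrX:82389391-82389450 (mm9, plus strand):
Dmd 5′ probe: cctgaacaatgtcaacaaggcactgcgggt
Dmd middle probe: tgcttgaagttgtcccgtaagatgagaaag
Dmd 3′ probe: actaaaaaacaaatttcgaaccaaaaggta

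The Utrn 3′ probe, the only utrophin probe above background, lies at chr10:12221228-12221287 (mm9, minus strand):
Utrn 3′ probe: tctgtgctgaacgccgtagatcaagctcga

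The 3 Sgcb probes crowd within 1.71 kb of chromosome 5, at chr5:74026579-74026638, chr5:74026514-74026573 and chr5:74024927-74024986 (mm9, minus strand):
Sgcb 5′ probe: acctggggagcaccactgtgtctattatgt
Sgcb middle probe: tctaatacattttagtaagttgcactgata
Sgcb 3′ probe: gctcagaaaaatcacgcttggaattctcat

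The 3 Sgcd probes, all of them lower, lie over 154.4 kb of chromosome 11, at chr11:46939058-46939117, chr11:46794345-46794404 and chr11:46784687-46784746 (mm9, minus strand):
Sgcd 5′ probe: gaaaattgctcttttctgcggatgacagtg
Sgcd middle probe: tagaaataaatgcagaagctggcaatatgg
Sgcd 3′ probe: gcaaaacttttgtaagcattgcaataatgc

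Dmd encodes dystrophin, the rod-shaped protein that links actin to dystroglycan. Its 5′ probe had log2 intensities of 8.46, 8.75, 8.83 and 8.77 on the WT arrays and 8.93, 9.001 and 8.49 on the AR113Q arrays. The genotypes overlapped on this probe, with AR113Q array 3 close to the lowest WT array, and the log2 fold change was 0.11 ± 0.18 (SE, limma adjusted p = 0.667, 95% interval -0.32 to 0.53). The middle probe read 8.58, 8.49, 8.49 and 8.65 in WT and 8.86, 9.23 and 8.66 in AR113Q muscle. Here the genotypes lay apart by a narrow margin, and the difference of 0.36 ± 0.17 did not pass the test (limma adjusted p = 0.123), although it did with array weights (0.51, limma adjusted p = 0.0328).

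The Dmd 3′ probe behaved otherwise. It read 4.37, 4.32, 5.38 and 3.13 in WT muscle, where 3 of 4 arrays were well above background, and 6.28, 6.24 and 6.42 in AR113Q muscle, where all 3 arrays were. Every AR113Q array lay above every WT array, the WT arrays were spread widely (SD 0.92) and the AR113Q arrays lay close together (SD 0.09). The log2 fold change was 2.02 ± 0.44 (SE, limma adjusted p = 0.00754). It shrank to 0.55 with normexp background correction, to 0.53 without background subtraction and to 0.32 in the authors' normalized values, with adjusted p of 0.00732, 0.0112 and 0.0147 by limma. From 5′ to 3′, the 3 Dmd probes thus gave changes of 0.11, 0.36 and 2.02, but 0.06, 0.26 and 0.55 with normexp and 0.06, 0.24 and 0.32 in the authors' values, so that the spread between them depended on the background handling. Dystrophin transcripts are known to start at several promoters along the locus, and which of them each probe reads was not tested.

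Utrn encodes utrophin, which takes the place of dystrophin at the neuromuscular junction and in regenerating fibers. Its 3′ probe read 7.11, 7.49, 7.34 and 7.14 on the WT arrays and 6.79, 6.73 and 6.67 on the AR113Q arrays. All AR113Q arrays lay below all WT arrays. The highest 2 WT values were those of arrays 2 and 3, on which slow fiber genes were high. AR113Q array 3, with the highest slow fiber sum, had the lowest Utrn value of all 7 arrays. The log2 fold change was -0.54 ± 0.16 (SE, limma adjusted p = 0.0234), or 68.8% of the WT level. This call was not stable: it was lost with normexp (-0.29, adjusted p = 0.0594), without background subtraction (-0.32, adjusted p = 0.0585), in the authors' values (-0.23, adjusted p = 0.0618), all by limma. It was lost as well without WT array 2 (-0.47, adjusted p = 0.0628), without WT array 3 (-0.52, adjusted p = 0.0613), without AR113Q array 2 (-0.54, adjusted p = 0.0534) and without the 3 arrays with high slow fiber genes (-0.37, adjusted p = 0.233), all by limma. The Utrn 5′ probe (chr10:12485038-12485097, mm9) stayed near background on all 7 arrays and gives no value.

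Dag1 encodes dystroglycan, the receptor that binds laminin outside the fiber and dystrophin inside it. Its single probe (chr9:108108491-108108550, mm9, minus strand) read 11.38, 11.14, 11.13 and 11.69 in WT and 11.76, 11.37 and 11.16 in AR113Q muscle. The genotypes covered nearly the same range, and the log2 fold change of 0.10 ± 0.21 (SE) did not pass the test (limma adjusted p = 0.742), with a 95% interval from -0.39 to 0.58.

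The sarcoglycans are transmembrane proteins that assemble with one another before they reach the membrane. Sgca, the α-sarcoglycan of striated muscle, was read by probes at chr11:94824546-94824605 (5′) and chr11:94824124-94824183 (3′, mm9, minus strand). Its 3′ probe read 14.21, 14.37, 14.03 and 14.09 in WT and 14.21, 14.30 and 14.09 in AR113Q muscle, with a log2 fold change of 0.02 ± 0.15 and a 95% interval from -0.33 to 0.37. The 5′ probe read 13.61, 13.48, 13.26 and 13.61 in WT and 13.11, 13.12 and 13.38 in AR113Q muscle (-0.28 ± 0.16 SE). Neither passed the test, with limma adjusted p of 0.916 and 0.191, and on both the genotypes overlapped.

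Sgcb, the β-sarcoglycan found in striated and smooth muscle, was higher in AR113Q muscle. Its 5′ probe read 11.05, 11.18, 11.02 and 11.32 in WT and 12.34, 11.92 and 11.47 in AR113Q muscle. This was 170.0% of the WT level, or 0.77 ± 0.22 on the log2 scale (SE, limma adjusted p = 0.0225). The middle probe, whose start lies 0.065 kb away, read 10.06, 10.02, 10.15 and 10.26 against 11.40, 10.93 and 10.51 (0.82 ± 0.22 SE, limma adjusted p = 0.0168). On all 3 probes the genotypes did not overlap, and AR113Q array 1 was the highest and array 3 the lowest of the mutant arrays.

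The Sgcb 3′ probe read 10.50, 10.39, 10.63 and 10.70 in WT and 11.10, 11.01 and 10.76 in AR113Q muscle, and its difference of 0.40 ± 0.16 (SE) missed the threshold (limma adjusted p = 0.0752). It passed with normexp (adjusted p = 0.0415), without background subtraction (0.0437), in the authors' values (0.0349), with array weights (0.0486) and without AR113Q array 3 (0.0398), again by limma. The call on the 5′ probe was lost without WT array 1, WT array 3, AR113Q array 1 or AR113Q array 2, with limma adjusted p of 0.0572, 0.0549, 0.0584 and 0.0571, while its direction stayed. With all 7 arrays in the comparison of genotype alone no Sgcb probe reached the fold change of a DEG. The middle probe did without AR113Q array 3 (1.04, limma adjusted p = 0.00472) and without the 3 arrays with high slow fiber genes (1.001, limma adjusted p = 0.0403).

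Sgcd, the δ-sarcoglycan, was lower on every probe. Its 3′ probe read 10.04, 10.03, 9.81 and 9.85 on the WT arrays and 7.74, 9.07 and 8.69 on the AR113Q arrays. The WT arrays lay close together (SD 0.12), whereas the AR113Q arrays were spread (SD 0.68), with array 1 the lowest. The log2 fold change was -1.43 ± 0.29 (SE, limma adjusted p = 0.0055, 95% interval -2.10 to -0.76).

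The Sgcd middle probe read 7.25, 7.22, 7.18 and 7.58 in WT and 5.97, 6.52 and 6.47 in AR113Q muscle (-0.99 ± 0.19 SE, limma adjusted p = 0.00446). The 5′ probe read 8.79, 8.42, 8.78 and 9.05 against 7.54, 7.75 and 7.90 (-1.03 ± 0.19 SE, limma adjusted p = 0.00345). On each of the 3 probes every AR113Q array lay below every WT array, and array 1 was the lowest. In the authors' values the 3 differences, from 3′ to 5′, were -1.09, -0.39 and -0.68 (limma adjusted p = 0.00499, 0.00801 and 0.00473), so that there the 3′ probe alone kept the fold change of a DEG. Without the 3 arrays with high slow fiber genes the 3′ probe missed the threshold (-1.53, limma adjusted p = 0.0564), and the middle and 5′ probes passed it (-1.18 and -1.28, limma adjusted p = 0.0341 and 0.0175).

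**Figure D1:**
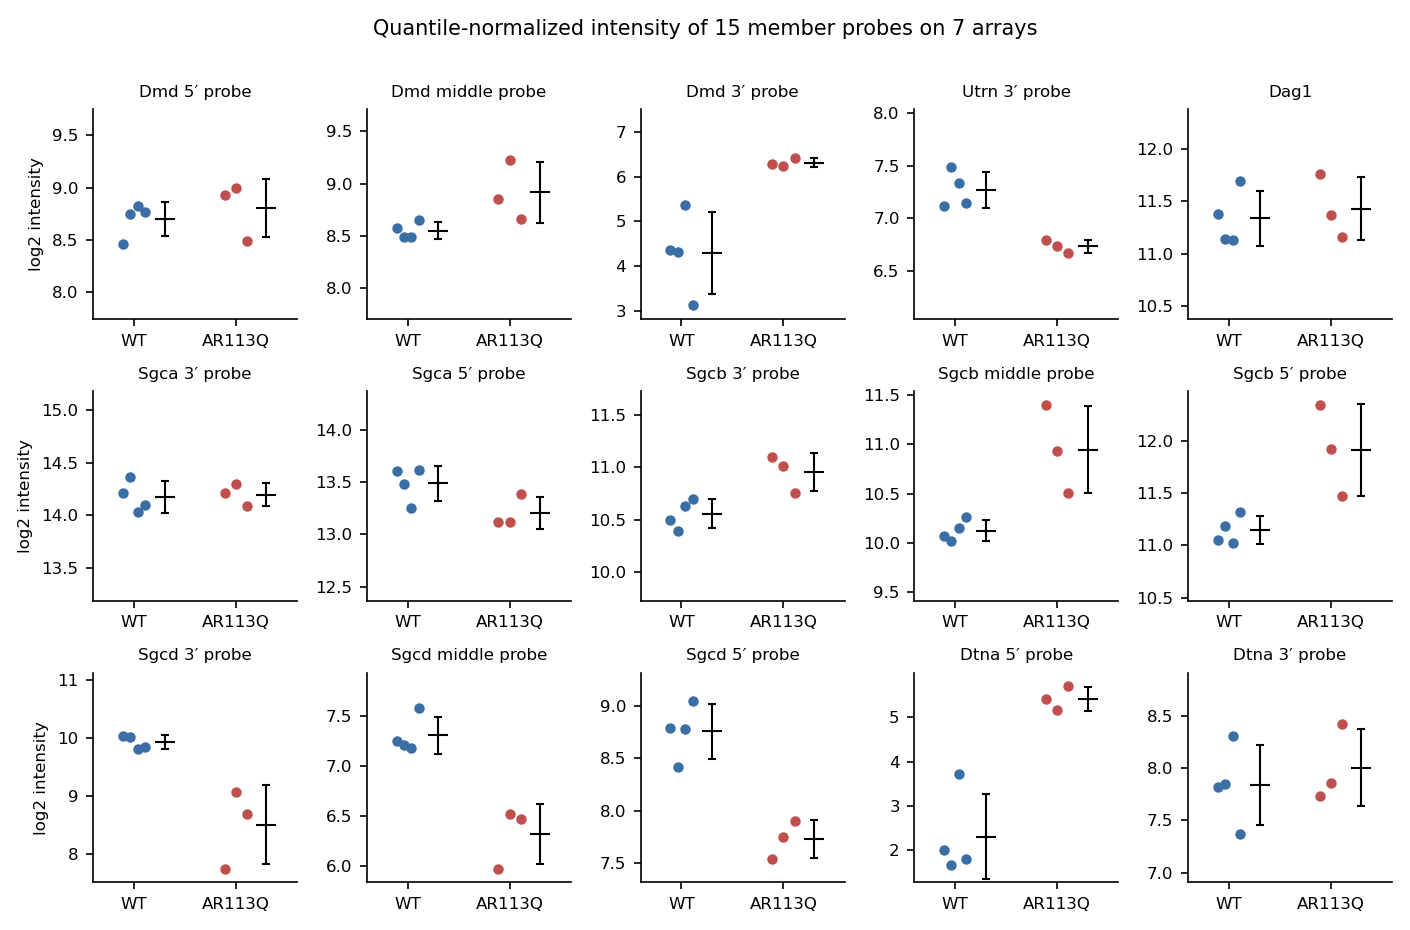
Log2 quantile-normalized intensity (y axis, 1 panel per probe, each with its own range) of the 15 member probes tested on 4 WT and 3 AR113Q arrays. Points are arrays and the black bars mean ± SD; the Sgcd probes sit lower and the Sgcb probes higher in all 3 AR113Q arrays, while the Dag1 and Sgca points overlap.

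Sgcb and Sgcd moved in opposite directions within the same arrays. The difference in log2 intensity between the Sgcb 5′ and Sgcd 3′ probes, which does not depend on a scale factor shared by an array, was 1.01, 1.16, 1.21 and 1.47 on the WT arrays and 4.60, 2.84 and 2.78 on the AR113Q arrays. AR113Q array 1 held both the highest Sgcb and the lowest Sgcd signal. These differences say that the probes changed unequally and give no ratio of transcripts.

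Slide 2 was the only slide with both genotypes, WT array 2 and AR113Q array 1. Between these 2 arrays the log2 differences were -2.28 for Sgcd and 1.16 for Sgcb by their brightest probes, -0.70 for Utrn and 1.96 for the Dmd 3′ probe. The other slides held 1 genotype each, so that slide and genotype cannot be told apart on them. With slide as a fixed effect, which rests on WT array 2 and AR113Q array 1 alone, no member probe passed the test. No probe of the whole array was a DEG in that fit either, so it does not set the members apart.

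Among the proteins on the inner face, Sntb1 encodes β1-syntrophin, an adaptor for signaling proteins. Its probes at chr15:55623590-55623649 and chr15:55470721-55470780 (mm9) were not well above background, except for 1 AR113Q array on the 5′ probe, and neither was tested.

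Dtna encodes α-dystrobrevin, which binds dystrophin and syntrophin. The 3′ probe (chr18:23748714-23748773, mm9, plus strand) read 7.82, 7.85, 8.31 and 7.37 in WT and 7.73, 7.85 and 8.42 in AR113Q muscle. The genotypes overlapped, with the highest value of each on an array with high slow fiber genes, and the log2 fold change was 0.17 ± 0.26 (SE, limma adjusted p = 0.633).

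The Dtna 5′ probe (chr18:23707661-23707720, mm9), which the array lists under a separate cDNA, was not well above background on any of the 4 WT arrays and was so on all 3 AR113Q arrays. It read 2.01, 1.68, 3.73 and 1.80 in WT and 5.41, 5.15 and 5.69 in AR113Q muscle, and since it was kept through the AR113Q arrays alone no call is read from it. Against the lowest signal that counted as above background on each WT array, the AR113Q signal gave a bound of 3.03-fold in these values. The WT values themselves have no order. With normexp background correction, which adds an offset of 50 to every spot, the difference was 0.45 on the log2 scale, less than this bound. The bound thus holds for the main background handling alone, and no rise is read from it. The changes of the 2 Dtna probes are not compared, and what transcript the 5′ probe reads was not tested.

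**Figure D2:**
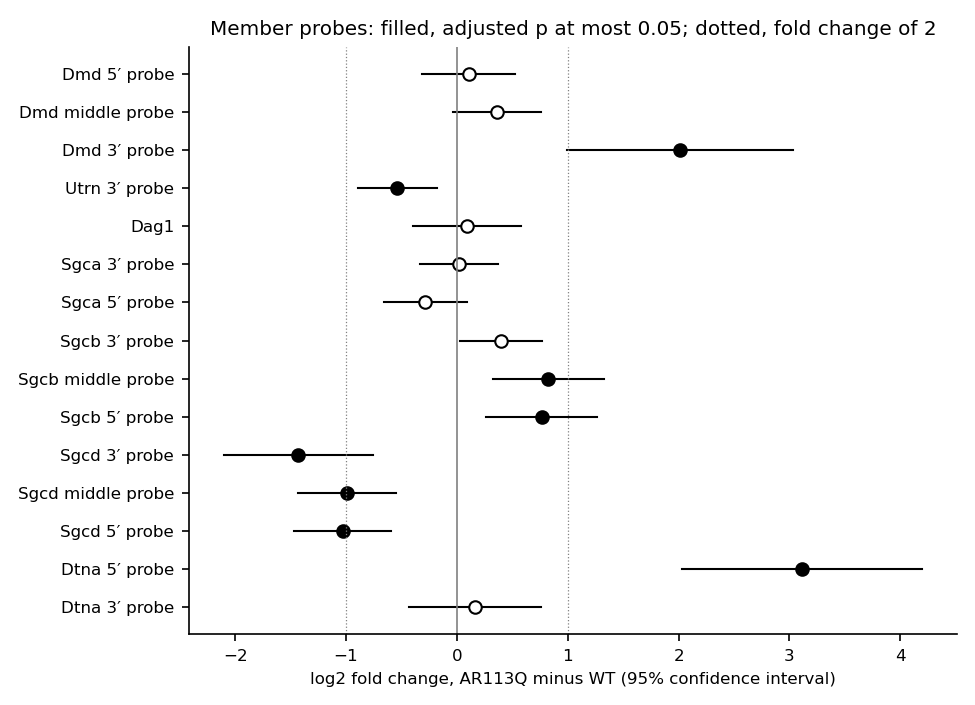
Log2 fold change of the 15 member probes (x axis, AR113Q minus WT) with 95% confidence intervals from limma; filled points passed the adjusted p of 0.05 and dotted lines mark a log2 fold change of 1. The Sgcd and Utrn intervals lie below 0, those of the Dmd 3′ and all 3 Sgcb probes lie above it, and the Dtna 5′ probe is drawn at its measured value, from which no call is read.

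**Figure D3:**
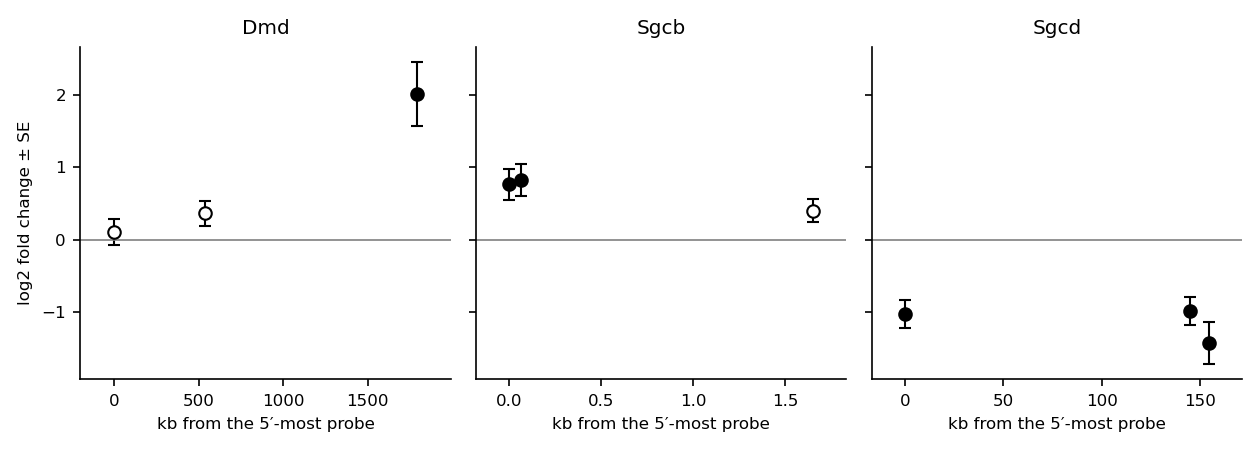
Log2 fold change ± SE (y axis) of each probe against its distance in kb from the 5′-most probe of the gene (x axis, own range per gene) for Dmd, Sgcb and Sgcd; filled points had a limma adjusted p of at most 0.05. The 3 Sgcd points lie between -1.43 and -0.99 over 154.4 kb and the Dmd points between 0.11 and 2.02 over 1793 kb; in the authors' values, which are not drawn, they lie between -1.09 and -0.39 and between 0.06 and 0.32.

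Other subunits of the complex were read from a list of 10 genes, of which 7 could be tested. Sspn, which encodes sarcospan, the small membrane protein that binds the sarcoglycans, was the only one past the adjusted p: it read 11.59, 11.66, 11.80 and 11.64 in WT and 10.35, 11.13 and 10.72 in AR113Q muscle (-0.94 ± 0.20 SE, limma adjusted p = 0.00676). The AR113Q arrays ranked as for the Sgcd 3′ probe, with array 1 lowest and array 2 highest, and without the 3 arrays with high slow fiber genes the Sspn call was lost (-0.87, limma adjusted p = 0.0914). The other genes tested did not pass, among them Sgce (ε-sarcoglycan, -0.33), Sntb2 (β2-syntrophin, -0.13), Dtnb (β-dystrobrevin, 0.07) and Drp2 (dystrophin-related protein 2, -0.31). Sgcz, Sntg1 and Sntg2 were not kept for the test. The median over the 7 genes was -0.31.

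Of 15 matrix, membrane and cytoskeletal partners, 4 were lower and 3 higher at the adjusted p, 3 of them as DEGs, all lower, counts that lie near the shares over the array (21.6% lower and 22.2% higher at the adjusted p, 12.6% lower DEGs). Synm encodes synemin, an intermediate filament protein that binds dystrophin and α-dystrobrevin; it read 13.15, 12.91, 12.86 and 13.05 in WT and 10.92, 11.37 and 11.09 in AR113Q muscle (-1.87 ± 0.17 SE, limma adjusted p = 0.000192). Cav3, the caveolin of muscle, which binds dystroglycan, fell from 13.45, 13.48, 13.75 and 13.72 to 11.40, 11.77 and 12.44 (-1.73 ± 0.25 SE, limma adjusted p = 0.00119). Hspg2 encodes perlecan, a matrix ligand of dystroglycan, and fell by 1.35 on the log2 scale (SE 0.19, limma adjusted p = 0.00118).

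On these 3 genes no AR113Q array reached the WT range. Sync (syncoilin, 0.71), Mark2 (a kinase of polarity and microtubules, 0.68) and Ank3 (ankyrin G, 0.68) were higher, with limma adjusted p of 0.0182, 0.0297 and 0.0207. Each of these 3 rises was lost without single arrays: Sync without AR113Q array 2 (adjusted p = 0.0609), Mark2 without WT array 1, 2 or 3 or AR113Q array 1 or 2 (adjusted p = 0.0691 to 0.0928), and Ank3 without WT array 1 or 2 or AR113Q array 2 or 3 (adjusted p = 0.0531 to 0.0581), all by limma. Without the 3 arrays with high slow fiber genes none of them passed (limma adjusted p = 0.0746, 0.0571 and 0.186). The median over the 15 genes was -0.44, below the 0.10 of the 7 members tested, and this list was not set against others by a test.

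The sugar chain that lets dystroglycan bind laminin is built by a dedicated set of enzymes. Of the 17 listed, 5 were lower DEGs and 1 was a higher DEG, against 12.6% and 12.2% of all tested probes. At the adjusted p 5 were lower and 3 higher, against 21.6% and 22.2% over the array. The list was not set against the array by a test. B3galnt2, which adds N-acetylgalactosamine to the core chain, showed the largest decrease of the list: it read 12.40, 12.00, 12.22 and 12.18 in WT and 9.37, 9.88 and 8.50 in AR113Q muscle (-2.95 ± 0.30 SE, limma adjusted p = 0.000315). Pomgnt2, which adds the preceding sugar, read 11.32, 11.56, 11.34 and 11.36 against 8.30, 9.63 and 9.56 (-2.23 ± 0.31 SE, limma adjusted p = 0.00109).

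Pomk, the kinase that phosphorylates this chain, read 8.76, 8.39, 8.88 and 8.49 in WT and 5.79, 6.76 and 6.92 in AR113Q muscle (-2.14 ± 0.28 SE, limma adjusted p = 0.000853). Pomgnt2, B3galnt2 and Pomk act one after another on the same chain, and on all 3 genes the highest AR113Q array lay over 1 log2 unit below the lowest WT array. Among the rises, Dpm1 and Dpm2, subunits of the enzyme that makes the mannose donor, were higher by 0.85 and 0.54 (limma adjusted p = 0.0272 and 0.0182). Dpm1 lost its call without WT array 1, 2 or 4 or AR113Q array 1 or 2 (adjusted p = 0.0535 to 0.0924), and Dpm2 without WT array 1 or 2 (adjusted p = 0.0505 and 0.0519) or without the 3 arrays with high slow fiber genes (adjusted p = 0.125), by limma. The 2 kept Dpm1 probes disagreed, and their mean gave 0.22 (limma adjusted p = 0.455). The median over the 17 genes was -0.33. In the authors' values, with normexp and without background subtraction 3 of these genes were lower DEGs and none higher, with Pomk at -1.06 in the authors' values, and 3 were lower DEGs without AR113Q array 1.

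**Figure D4:**
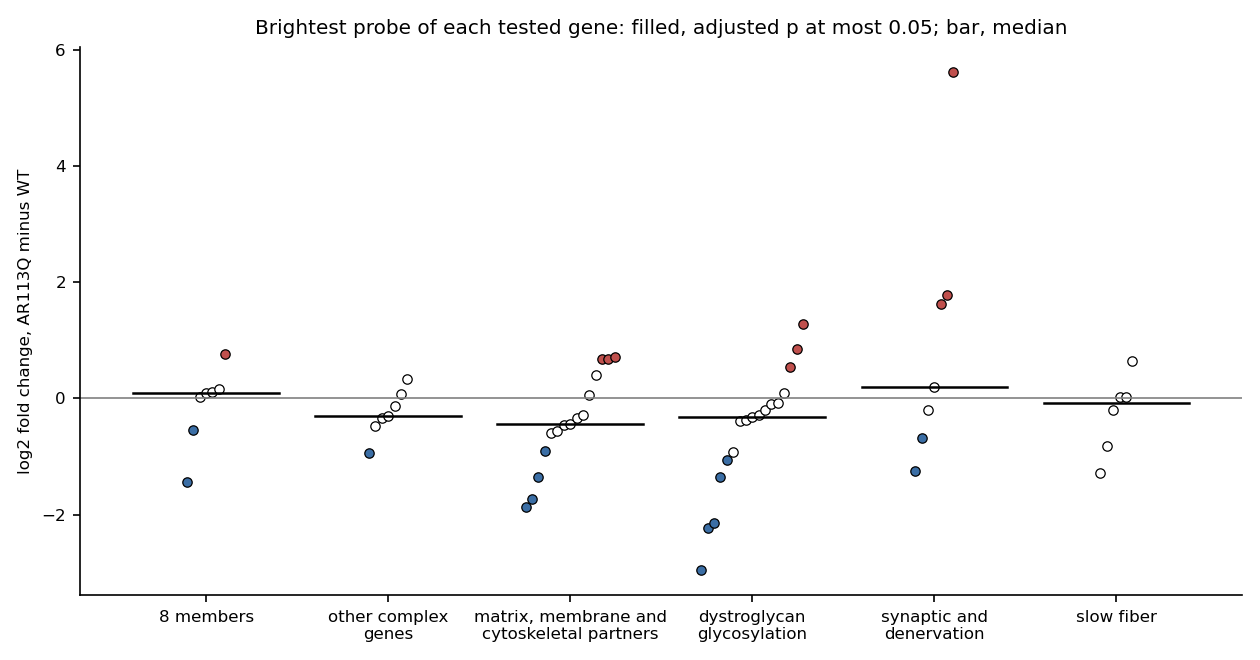
Log2 fold change (y axis, AR113Q minus WT) of the brightest probe of each tested gene in 6 lists; filled points had a limma adjusted p of at most 0.05, blue for lower and red for higher, and bars are medians. The members have 2 filled points below 0 and 1 above, and the glycosylation genes reach down to -2.95.

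Genes of the neuromuscular junction, where utrophin and α-dystrobrevin are concentrated, were listed as well. Of the 7 tested, Runx1, a transcription factor of denervated muscle, was higher by 5.62 ± 0.30 (SE, limma adjusted p = 4.49e-05), Chrna1 (acetylcholine receptor α subunit) by 1.77 ± 0.22 (adjusted p = 0.000597) and Musk (the kinase that organizes the junction) by 1.62 ± 0.25 (adjusted p = 0.00161). Chrne, the adult receptor subunit, was lower (-1.25 ± 0.32 SE, limma adjusted p = 0.0155). Ncam1, an adhesion molecule, was also lower (-0.68, limma adjusted p = 0.0409), a call lost without WT array 1, 2 or 4 or AR113Q array 1 or 2 (adjusted p = 0.0651 to 0.125), in the authors' values (-0.24, adjusted p = 0.0523), without a filter on dim probes (adjusted p = 0.0813) and as the mean of its 3 kept probes (-0.19, adjusted p = 0.636), all by limma. Chrnd and Myog did not pass the test. In the authors' values Runx1 differed by 2.83 (limma adjusted p = 0.000173) and Chrne by -0.34 (limma adjusted p = 0.0695). The summed signal of the list was 1584 to 2267 on WT and 5725 to 6357 on AR113Q arrays, against 22851 to 27583 and 23749 to 28625 for the members. Sgca, the brightest member (mean log2 14.18), makes up most of the sum of the members. That sum therefore does not show the changes of Sgcd, Utrn or Sgcb.

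Quadriceps holds cells other than fibers, and sarcoglycans are made in some of them. In bulk RNA fewer cells of a type and less RNA per cell cannot be told apart. The 5 smooth muscle markers, all tested, summed to 17536 to 21218 in WT and 8832 to 13303 in AR113Q muscle. At the adjusted p 3 of 5 were lower, Tagln, Acta2 and Smtn. Cnn1 (-0.68, limma adjusted p = 0.190) did not pass, nor did Myh11, which was higher by 0.25 (limma adjusted p = 0.379). Over the array 21.6% of tested probes were lower and 22.2% higher at the adjusted p. These shares apply to the marker counts below as well. The genotypes did not overlap on the sum, as for Sgcd and for 49.6% of tested probes. The part of smooth muscle in the Sgcd decrease was not tested. Adipocyte markers, 4 of 5 lower, summed to 32402 to 63340 in WT and 11250 to 20085 in AR113Q muscle, also without overlap.

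Fibroblast markers, 4 of 6 lower, summed to 103582 to 126359 in WT and 75042 to 105727 in AR113Q muscle, where the ranges overlapped. Their median log2 fold change was -2.32, with Col3a1 at -4.62, Col1a1 at -3.27, Lum at -2.39 and Col1a2 at -2.25, while Dcn was at 0.41 (limma adjusted p = 0.0706), so that the sum does not show the falls of the collagens. Macrophage markers (7010 to 12443 against 5049 to 7092), Schwann cell markers (2143 to 4841 against 1439 to 2171), endothelial markers (2641 to 2853 against 2175 to 3119) and erythroid markers (44360 to 213974 against 45163 to 57674) overlapped between genotypes. At the adjusted p, 2 of 6 macrophage markers were lower and 1 higher, 1 of 6 Schwann cell markers was lower and 1 higher, 1 of 6 endothelial markers was higher and none lower, and the 3 erythroid markers did not pass. The 8 myofiber markers summed to 837524 to 994519 in WT and 717708 to 882252 in AR113Q muscle. Of these 8, 2 were lower at the adjusted p, Ckm (-0.80, limma adjusted p = 0.0101) and Mylpf (-1.37, limma adjusted p = 0.0040), and their median was -0.47.

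**Figure D5:**
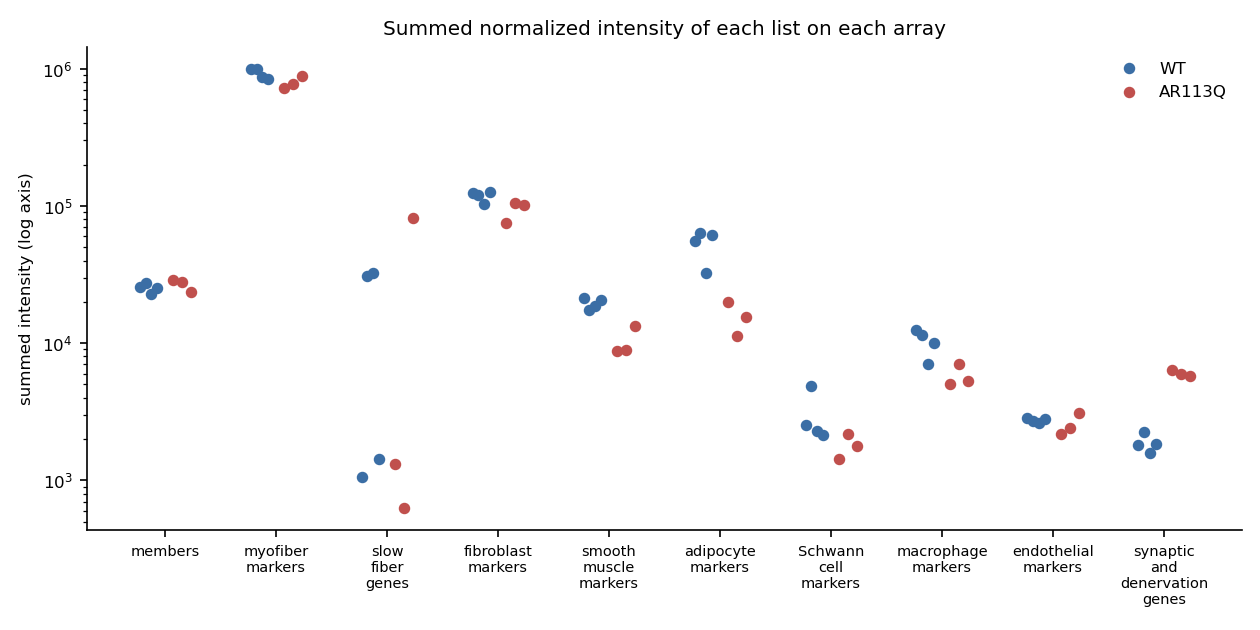
Summed normalized intensity (y axis, log axis) of the members, of cell type markers and of 2 further lists on each array; blue points are WT and red points AR113Q arrays. The sum of the members, most of it from Sgca, overlaps between genotypes. Smooth muscle and adipocyte sums are lower on all 3 AR113Q arrays, and slow fiber genes split the arrays of both genotypes.

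For Dmd and Utrn the genes with the most similar pattern over the 7 arrays were looked up among all genes tested, as a description. For the Dmd 5′ probe they were Rad50, 5830417I10Rik and H2bc18, with Pearson correlations of 0.98, 0.97 and 0.94. For the Utrn 3′ probe they were Uhrf1bp1, Tbx15 and Crlf3, with 0.99, 0.99 and 0.99, and their own log2 fold changes were -0.46, -0.57 and -0.82. The arrays of a genotype share its difference, which enters these correlations, and no shared function is read from them.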

How the data were processed

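Quadriceps RNA of 7 mice was measured on 1-color Agilent arrays. The authors deposited, per array, background-subtracted spot intensities from Agilent Feature Extraction 10.7.3.1, not normalized between arrays, with mean spot intensities and local backgrounds. A second file that the authors deposited holds log2 values, quantile normalized by the methods and used here as an alternative. Depth has no meaning for arrays; their number limits the precision.

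From the intensities, outlier and control spots were left out, log2 was taken, arrays were quantile normalized and spots of a probe averaged. Probes that rose well above background on 3 or more of the 7 arrays were tested with limma 3.58.1 (lmFit, eBayes; R 4.3.3), with Benjamini-Hochberg adjustment over all of them, and the procedure was tested on simulated data. A gene was read by its brightest kept probe. Names came through RefSeq accessions for 28330 of 39429 probes, and positions are those of the array annotation (mm9). Whether a probe lies in a coding or untranslated exon is not annotated here.

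The members and lists were chosen with earlier results of these data known. Every member probe is named. Of each other list, up to 3 genes per direction past the adjusted p are named. Sgce, Sntb2, Dtnb, Drp2, Cnn1 and Myh11 were named after their values were seen. A few listed genes are not reported here by name. Replicates are separate mice. Replicate numbers did not pair the arrays: deviations of same-numbered arrays correlated at 0.04, -0.02 and 0.16. Alternatives were 75th percentile scaling, 2 background settings, the authors' values, 2 filters, 2 ways to combine probes, outlier spots, the eBayes trend, slide as a random or fixed effect, a replicate block, array weights, the fold change threshold and each array left out. Leaving out the 3 arrays with high slow fiber genes was added after seeing the data.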

Additional observations from a re-analysis of the deposited data

Results flagged for a closer look

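On the Dtna 5′ probe, WT replicate 3 read 3.73 on the log2 scale, apart from the other 3 WT arrays, with a gap of 0.839 of the range of the group, just over the critical value of Dixon's test for 4 arrays. None of the 4 WT arrays was well above background on this probe, so nothing is read from this flag. Of 15 groups of 4 WT arrays examined, 1 was flagged, and chance flags about 1 in 20 such groups.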

How the results depend on the processing

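With slide as a fixed effect, which rests on 2 arrays, all-probe DEGs fell from 5207 to 0, lower members from 1 to 0 and member probes past the adjusted p from 8 to 0, counts that here and below include the Dtna 5′ probe. DEGs were 2088 with normexp, 2264 without background subtraction and 1592 in the authors' values; the cause was not tested. Without a fold change threshold 9200 probes, 2 lower and 1 higher members were counted. The mean over a gene's probes gave 1 higher member, Dtna, which rests on the 5′ probe kept through AR113Q arrays alone and is not read as a call. Without the 3 arrays with high slow fiber genes, 0 members were lower DEGs (Sgcd 3′ probe -1.53). Leaving out 1 array gave 4453 to 5562 DEGs, 1 lower and 0 higher members, 6 to 9 member probes and a Dtna bound of 2.60-fold to 3.33-fold.

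Values near 0 changed sign. The Sgca 3′ probe gave -0.089 with normexp, -0.088 without background subtraction, -0.083 in the authors' values, -0.13 as the mean of its gene, -0.16 with slide fixed, -0.0038 with the replicate block and -0.028 to 0.087 with 1 array left out. The Dtna 3′ probe gave -0.11 with slide fixed and -0.045 to 0.32 with 1 array left out, and Dag1 -0.070 to 0.23 with 1 array left out. The replicate block ended the calls of Utrn (-0.58, limma adjusted p = 0.0745), Dpm1 (adjusted p = 0.0811), Dpm2 (adjusted p = 0.0688), Chrne (adjusted p = 0.0603) and Ncam1 (adjusted p = 0.113) and left 5188 DEGs, 1 lower and 0 higher members and 7 member probes. Dim probes limit the rest.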
